A study of Rattus norvegicus with 77 samples.

Results

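The Spata (spermatogenesis associated) and Tex (testis expressed) genes of the rat were examined in RNA of sperm. They were taken as every probe set (the probes that together read 1 transcript) with a single gene symbol made of Spata or Tex followed by a digit, keeping the brightest probe set of each gene. This gave 35 genes, 21 of them Spata and 14 Tex, each read by 1 probe set, out of 29214 probe sets on the array, of which 15310 carried 1 gene symbol. All samples came from adult male Fischer 344 rats, and each array measured the cauda epididymal sperm of 1 rat on an Affymetrix whole-transcript rat gene array. The water group (20 arrays) drank untreated water for 3 months and the HD group (19 arrays) drank 0.33% 2,5-hexanedione, a toxicant of the microtubules of Sertoli cells, for the same time. The water-recovery group (18 arrays) and the HD-recovery group (20 arrays) had the same exposures and then 3 further months on untreated water. The sperm had been washed in a buffer meant to lyse other cells, and because the RNA of a whole pellet was measured, a smaller share of 1 cell type and less RNA per cell cannot be told apart.

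Sperm are made from spermatocytes, which undergo meiosis, and then from spermatids, which condense the nucleus and build the acrosome, the midpiece with its mitochondria and the tail. Transcription stops as the spermatid elongates, so the RNA of a mature sperm is a remnant of earlier stages. The Spata and Tex names record where a transcript was first found and not a shared structure or function. Of the 35 genes, 7 were grouped here as spermatid and sperm structure genes (Spata3, Spata4, Spata6, Spata18, Spata19, Spata20 and Spata24). Another 3 were grouped under meiosis and germ cell development (Tex15, Tex19.1 and Tex101). A further 8 were grouped under functions in many cell types (Spata2, Spata2L, Spata7, Spata13, Tex2, Tex10, Tex261 and Tex264). The other 17 were given no role here. The name of the group of 7 is a loose label, since a part in structure is described below for Spata6 and Spata19 only.

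The upstream sequences of 3 genes that varied together across arrays are printed with simple motifs marked. A reference promoter was at hand for 34 of the 35 genes, and the 250 bases before the annotated start are given 5′ to 3′ on the strand of the gene (RefSeq, build GRCr8). Capitals mark a CRE half-site (TGACGT), bound by CREB and CREM factors, or a CCAAT box (CCAAT), each searched on both strands and not overlapping here. Spata19 lies on the plus strand at chr8:34073102-34073351, Spata32 on the minus strand at chr10:88664145-88664394 and Spata18 on the minus strand at chr14:34912705-34912954.
Spata19: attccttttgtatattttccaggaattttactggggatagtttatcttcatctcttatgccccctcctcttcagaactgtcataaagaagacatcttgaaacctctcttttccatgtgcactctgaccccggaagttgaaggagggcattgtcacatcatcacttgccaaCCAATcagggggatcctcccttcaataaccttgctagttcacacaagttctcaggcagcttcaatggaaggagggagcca
Spata32: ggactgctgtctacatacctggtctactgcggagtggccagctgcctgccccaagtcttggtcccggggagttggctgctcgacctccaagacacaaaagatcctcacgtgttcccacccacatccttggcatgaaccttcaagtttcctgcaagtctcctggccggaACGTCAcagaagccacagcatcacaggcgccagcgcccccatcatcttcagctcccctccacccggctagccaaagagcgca
Spata18: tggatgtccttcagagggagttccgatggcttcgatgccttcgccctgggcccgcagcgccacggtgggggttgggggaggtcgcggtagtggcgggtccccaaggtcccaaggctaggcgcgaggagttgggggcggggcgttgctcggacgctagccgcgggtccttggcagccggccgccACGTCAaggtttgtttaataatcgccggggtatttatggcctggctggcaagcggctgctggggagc

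The half-site was present upstream of 4 of the 34 genes (Spata2L, Spata7, Spata18 and Spata32), or 11.8%, against 6.95% of all 33469 reference promoters. The CCAAT box was present upstream of 9 of the 34, or 26.5%, against 34.0% of all promoters. A TATA box (TATAAA) was found for 2 genes (Spata4 and Tex19.1) against 12.9% of all promoters, and a Sox core (AACAAT) for 3 (Spata4, Spata24 and Tex38) against 10.3%. None of the 4 motifs was found in all 3 printed genes. Spata18 and Spata32 shared the half-site. Spata19 shared the CCAAT box with Spata20 and Spata24, which varied with it (Pearson correlations within groups of 0.84 and 0.87). It also shared that box with Tex2, Tex26, Tex38, Tex101, Tex261 and Tex264. Their correlations with Spata19 were lower, from 0.06 (Tex264) to 0.56 (Tex2). A match of letters is no evidence that a factor binds.

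Arrays of 1 group differed widely. An array was taken to stand apart when its median correlation with the others of its group lay over 3 scaled median absolute deviations below the median of that value over its group, and this held for 10 of the 77 arrays: HD replicates 3, 4, 5 and 14, water replicate 20, HD-recovery replicates 2, 9 and 16 and water-recovery replicates 12 and 15. HD replicate 5 was the farthest, with a median correlation of 0.83 against at most 0.98 in its group. Its mean over 24 spermatocyte genes was 8.17 against at most 6.76 in the other HD arrays, and that over 16 Sertoli cell genes was 7.59 against at most 6.74. For 24 of the 35 genes HD replicate 5 was the array farthest from its group mean, and the values it moved most are given with and without it. All arrays were kept in the tests unless stated.

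Among the 35 genes, the spread between arrays of 1 group differed in its median between roles, with ranges that overlapped and no test made. The pooled SD within groups was 0.39 to 0.88 on the log2 scale for the 7 spermatid and sperm structure genes (median 0.52), 0.16 to 0.48 for the 8 genes with functions in many cell types (median 0.19), 0.18 to 0.54 for the 3 meiosis and germ cell genes (median 0.23) and 0.13 to 0.74 for the 17 genes with no role given (median 0.36). Without HD replicate 5 the medians were 0.47, 0.16, 0.23 and 0.23. The 5 genes with the largest spread were Spata19, Spata31f3, Tex36, Spata32 and Spata6, with SDs of 0.88, 0.74, 0.66, 0.56 and 0.56. With that array left out they were 0.82, 0.63, 0.44, 0.56 and 0.54, and Tex36 was no longer among the first 5. Tex9 had the smallest, at 0.13. A spread of this kind limits a comparison of groups most for the genes that vary most.

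Spata19, a protein of the mitochondrial sheath of the midpiece, had log2 intensities from 7.18 to 10.16 in the water group (median 8.87) and from 7.49 to 12.33 in the HD group (median 9.36). In the water-recovery group they ran from 7.29 to 8.97 (median 8.04) and in the HD-recovery group from 7.56 to 10.56 (median 9.16). The groups overlapped over most of their range, and the water-recovery group lacked the high values seen in the other 3. Group means were 8.75 ± 0.89 (SD, n = 20) for water, 9.57 ± 1.09 (SD, n = 19) for HD, 8.16 ± 0.57 (SD, n = 18) for water-recovery and 8.99 ± 0.89 (SD, n = 20) for HD-recovery.

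Spata6, which is needed to build the connecting piece between sperm head and tail, ran from 8.41 to 10.47 in water (median 9.72), 8.61 to 11.46 in HD (median 9.99), 8.83 to 9.98 in water-recovery (median 9.24) and 8.69 to 10.43 in HD-recovery (median 9.81). Spata3, a testis protein that appears in spermatids, ran from 9.63 to 11.63 in water (median 10.79), 9.72 to 11.68 in HD (median 10.94), 10.01 to 11.13 in water-recovery (median 10.40) and 9.92 to 11.47 in HD-recovery (median 10.91). Spata18, the mitochondrial quality control protein also called Mieap, ran from 10.23 to 12.11 in water (median 11.38), 10.58 to 12.33 in HD (median 11.58), 10.50 to 11.53 in water-recovery (median 10.95) and 10.21 to 11.79 in HD-recovery (median 11.25). In each of these 3 genes, as in Spata19, the HD group had the highest median and the water-recovery group the lowest, and all 4 groups overlapped.

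**Figure D1:**
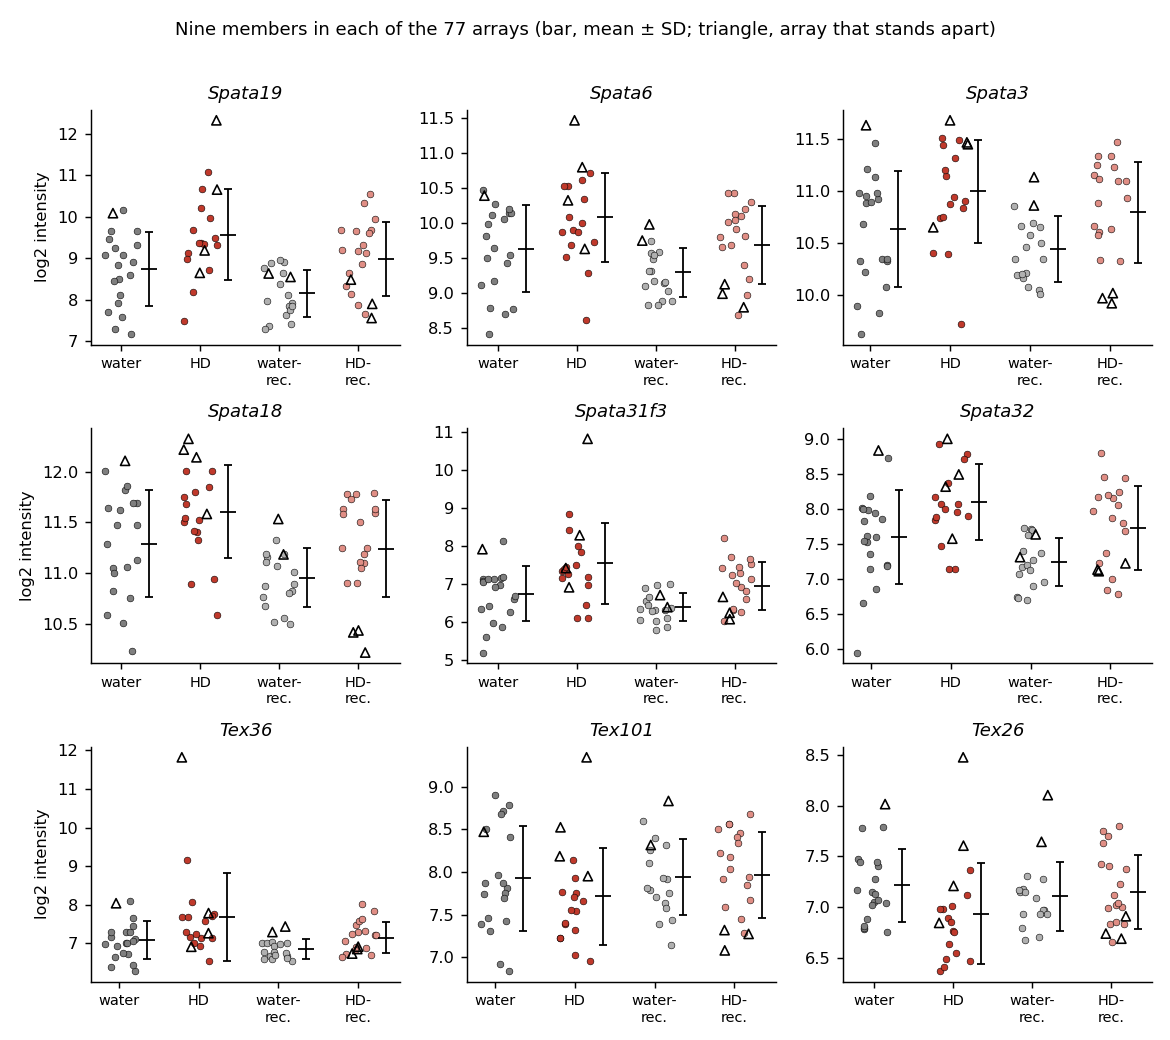
Log2 intensity (vertical axes) of 9 Spata and Tex genes in each of the 77 arrays by group (horizontal axes), with points for single arrays, triangles for the 10 arrays that stood apart and bars for the mean ± SD of all arrays of the group. The groups overlap in every panel, and the highest triangle of Spata19, Spata31f3 and Tex36 in the HD group, at 12.33, 10.83 and 11.82, is HD replicate 5.

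The first comparison asked whether sperm transcripts differed between exposed and control rats at the end of the exposure. Most of the 35 genes had higher means in arrays labelled HD, with 29 positive log2 fold changes and a median of 0.12 against 0.01 over all probe sets, but none was altered after adjustment over all probe sets (limma, q under 0.05, smallest q = 0.23). Over the whole array 138 probe sets, or 0.472%, were altered, and 5 of these were higher. All fold changes were formed as the labelled HD group minus its labelled control. For the transcripts that the study lists as altered, the direction in the deposited values is opposite to the one it describes, and none of the Spata and Tex genes is on that list. The groups are therefore named as the arrays are labelled, and every direction rests on those labels. Whether labels were exchanged was not tested. An exchange in the first comparison alone would turn its signs, so that its likeness to the second would become an opposition.

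At an unadjusted p under 0.05, 14 of the 35 genes were higher in arrays labelled HD, where 3.4% of all probe sets were, and 1 (Tex26) was lower, where 4.91% of all probe sets were. These 14 values are not independent, since the genes varied together from array to array. Without HD replicate 5 the number higher was 8 of 35, where 5.69% of all probe sets were. The number lower was 2 (Tex26 and Tex264), where 1817 of 29214 probe sets were. The median log2 fold change was 0.07, against 0.02 over all probe sets. None was then altered after adjustment (smallest q = 0.076, for Tex26).

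All 7 spermatid and sperm structure genes had a positive log2 fold change, with a median of 0.39 and a range of 0.32 to 0.83, and 6 of them had an unadjusted p under 0.05. The roles were chosen with earlier results of these data known, so the shared sign is a description and not a test. Spata19 differed by 0.83 (SE 0.30, q = 0.30 from limma), or 1.77-fold, and exceeded the water median in 15 of 19 HD arrays. Spata20, a thioredoxin-like protein of spermatids, and Spata6 each differed by 0.45 (SE 0.19 for both, q = 0.46 and 0.49). Spata4, Spata24, Spata3 and Spata18 had log2 fold changes of 0.39, 0.38, 0.36 and 0.32. Without HD replicate 5, Spata19 had 0.67 (q = 0.21), Spata6 0.37, Spata20 0.35 and Spata4 0.26, and an unadjusted p under 0.05 was kept by 4 of the 7 (Spata3, Spata19, Spata20 and Spata24).

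Among the genes with no role given, Spata31f3 had the smallest p of the 35. It ran from 5.21 to 8.14 in water (median 6.96) and from 6.13 to 10.83 in HD (median 7.40), a log2 fold change of 0.81 (SE 0.28, p = 0.0054, q = 0.23 from limma), and 0.63 (q = 0.15) without HD replicate 5. Tex36 ran from 6.29 to 8.10 in water (median 7.03) and from 6.55 to 11.82 in HD (median 7.30). Its log2 fold change of 0.60 (SE 0.27, q = 0.51) fell to 0.37 without HD replicate 5, the next highest HD array being at 9.15. Spata32 ran from 5.95 to 8.83 in water (median 7.61) and from 7.14 to 9.00 in HD (median 8.06), and its log2 fold change of 0.49 (SE 0.19, q = 0.34) was 0.48 without that array.

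The log2 fold changes of Spata31 and Spata1 were also smaller without HD replicate 5. Spata31 ran from 5.90 to 10.72 in HD (median 6.38) and from 5.85 to 6.64 in water (median 6.16). Its log2 fold change of 0.48 (SE 0.23, q = 0.56) was 0.26 (SE 0.09, q = 0.15) without that array. Its unadjusted p was smaller there, at 0.0083 against 0.040 with all arrays (limma). In all, 17 of 19 HD arrays exceeded the water median of Spata31. Spata1 had 0.30 (SE 0.14, q = 0.56) and 0.19 without HD replicate 5. Tex38 and Tex9 had smaller differences, of 0.18 (SE 0.08, q = 0.52) and 0.10 (SE 0.05, q = 0.59), with 15 and 13 of 19 HD arrays above the water median. They were 0.12 (limma, p = 0.058) and 0.07 (limma, p = 0.088) without HD replicate 5.

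Few of the 35 genes had lower means in arrays labelled HD. Tex26 ran from 6.75 to 8.02 in water (median 7.14) and from 6.37 to 8.48 in HD (median 6.85), with a log2 fold change of −0.28 (SE 0.13, p = 0.042, q = 0.57) and 15 of 19 HD arrays below the water median. Tex101, a surface protein of germ cells needed for sperm to enter the oviduct, had −0.21 (SE 0.18, q = 0.91). Spata33, which ties the phosphatase calcineurin to the sperm midpiece, had −0.15 (SE 0.17, q = 0.97). It is a sperm protein too, but was counted with the genes given no role, and among the structure genes it would be the only negative one. Tex15 and Tex19.1, germ cell proteins that restrain transposons, had 0.05 and −0.02, and Tex15 had 0.02 without HD replicate 5. The 8 genes with functions in many cell types had log2 fold changes from −0.11 (Tex264, a receptor for autophagy of the endoplasmic reticulum) to 0.16 (Tex2, a lipid-transfer protein of that compartment, 0.09 without HD replicate 5), and none had an unadjusted p under 0.05 with all arrays. Tex30 and Spata9, with Tex15 the lowest means of the 35 probe sets, had 0.17 (SE 0.11) and 0.21 (SE 0.15), which were 0.06 and 0.05 without HD replicate 5.

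Other genes of the spermatid and sperm, from a list of 49 of which 41 were measured and none is a Spata or Tex gene, did not move as 1 group. By an unadjusted p under 0.05, 14 were higher and 8 lower in arrays labelled HD, the median log2 fold change was 0.23, and 1 (Odf1, a protein of the tail's dense fibres) was altered after adjustment, being lower. The mean of 32 leukocyte genes was 7.29 ± 0.23 (SD, n = 19) in HD and 7.55 ± 0.19 (SD, n = 20) in water, and 5 of them (Lyz2, Fcer1g, Cx3cr1, Cd4 and Ccr2) were lower. In the other lists Ahsp of 7 erythroid genes and Dcn of 14 fibroblast genes were lower, Clu of 16 Sertoli cell genes was higher, and none of 24 spermatocyte, 19 epididymal or 7 Leydig cell genes was altered. The part of these cell types in the values of the Spata and Tex genes was not tested.

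**Figure D2:**
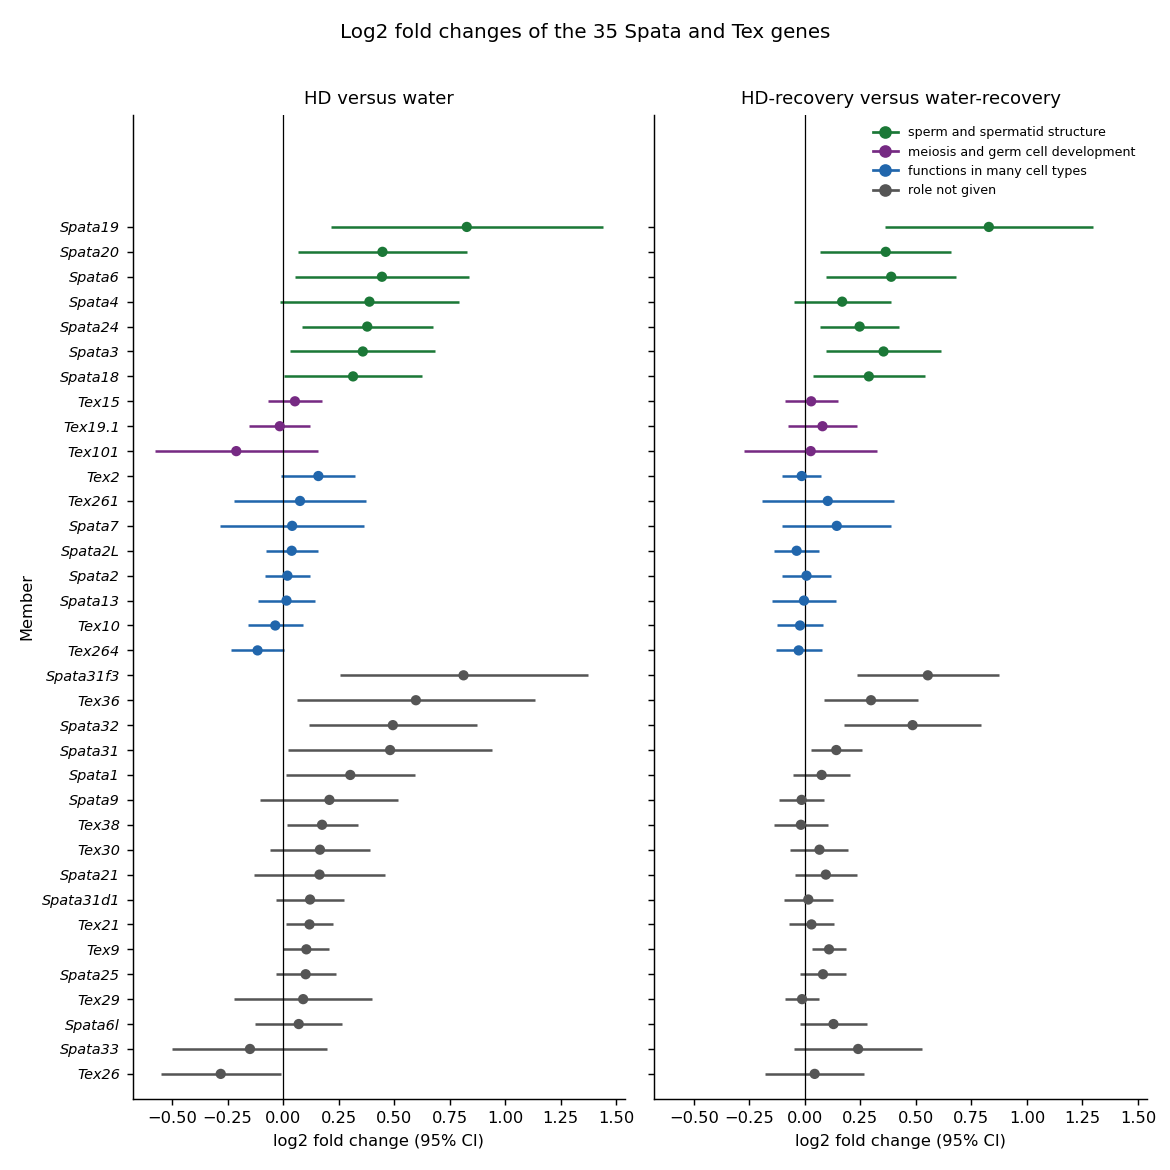
Log2 fold changes (points, horizontal axes) with 95% confidence intervals (lines) of the 35 genes (vertical axis), in arrays labelled HD minus water on the left and HD-recovery minus water-recovery on the right, coloured by role. The 7 spermatid and sperm structure genes at the top lie right of 0 in both panels, from 0.32 to 0.83 and from 0.17 to 0.83, while the 8 genes with functions in many cell types lie between −0.11 and 0.16.

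The second comparison asked whether differences were present after 3 months of recovery. It used other rats, so its values share no array with the first. None of the 35 genes was altered (limma, q under 0.05, smallest q = 0.72), and no probe set of the whole array was (0%). At an unadjusted p under 0.05, 11 of the 35 were higher in arrays labelled HD-recovery, where 2.86% of all probe sets were, and 0 were lower, where 1.65% were. These 11 genes (Spata3, Spata6, Spata18, Spata19, Spata20, Spata24, Spata31, Spata31f3, Spata32, Tex9 and Tex36) were all among the 14 of the first comparison. The share of all probe sets that were higher in both comparisons was not counted. Most of the 11 varied together from array to array, so their overlap is not a set of independent repeats.

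The sizes in recovery were close to those at the end of exposure for several structure genes. Spata19 had a log2 fold change of 0.83 (SE 0.23, p = 0.00091, q = 0.72), and 16 of 20 HD-recovery arrays lay above the water-recovery median. Spata6 had 0.39 (SE 0.14, q = 0.87), Spata20 0.36, Spata3 0.35 (SE 0.13, q = 0.84), Spata18 0.29 (SE 0.13), Spata24 0.25 (SE 0.09, q = 0.79) and Spata4 0.17 (SE 0.11). All 7 were again positive. Spata32 had 0.48 (SE 0.15, q = 0.72) with a range of 6.69 to 7.73 in water-recovery and 6.79 to 8.80 in HD-recovery.

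For Spata31f3 the range was 5.80 to 7.01 in water-recovery (median 6.37) and 6.05 to 8.22 in HD-recovery (median 6.98), a log2 fold change of 0.55 (SE 0.16, q = 0.72). Tex36 had 0.30 (SE 0.10, q = 0.77), Spata31 0.14 (SE 0.06) and Tex9 0.11 (SE 0.04, q = 0.75), with 17 of 20 arrays above the control median for Tex9. Genes that had been lower in HD had values near 0 or above it, at 0.04 for Tex26 (SE 0.11), 0.03 for Tex101 (SE 0.15) and 0.24 for Spata33 (SE 0.14). Spata1 had 0.08 (SE 0.06) and Tex38 −0.02 (SE 0.06). The 8 genes with functions in many cell types ran from −0.04 to 0.14.

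Across the 35 genes the log2 fold changes of both comparisons had a Pearson correlation of 0.79 and a Spearman correlation of 0.65, against a Pearson correlation of 0.30 over all probe sets, with 23 genes positive in both, 2 negative in both and 10 of opposite sign. This is a description over genes that vary together, not over independent replicates. With the 10 arrays that stood apart left out the 35 genes had 0.57 (Spearman 0.44), while all probe sets had −0.47.

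The difference between both HD effects was tested in 1 fit of all 4 groups. No gene of the 35 and no probe set of the array (0%) passed after adjustment, and at an unadjusted p under 0.05 it was 0 of the 35 against 3.38% of all probe sets. The effect on Spata19 differed by 0.00 with a 95% confidence interval of −0.78 to 0.78. Intervals were narrower for Tex38 (0.19, −0.01 to 0.39) and Tex2 (0.17, −0.01 to 0.36). Tex26 had −0.32 (−0.68 to 0.03) and Spata33 −0.39 (−0.85 to 0.07). Without HD replicate 5 the values were −0.15 for Spata19, 0.14 for Tex38, 0.10 for Tex2, −0.41 for Tex26 and −0.43 for Spata33, and that of Tex26 then had an unadjusted p of 0.012 (limma, q = 0.55).

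Most of the 35 genes had lower means after the recovery period. Between water-recovery and water 6 log2 fold changes were positive, where 50.86% of all probe sets were. For HD-recovery against HD it was 5, where 43.92% were. Without the arrays that stood apart these numbers were 9 and 11, where 55.81% and 32.27% of all probe sets were positive. Between water-recovery and water none was altered (0% of all probe sets, smallest q of the 35 genes 0.88). At an unadjusted p under 0.05, 3 genes were lower (Spata18 by −0.34, Spata19 by −0.58 and Spata32 by −0.36), where 2.34% of all probe sets were. The number higher was 0, where 690 of 29214 probe sets were. Between HD-recovery and HD none of the 35 was altered, against 0.154% of all probe sets, and 15 were lower at an unadjusted p under 0.05, where 5.27% of all probe sets were. Spata19 had −0.58 (SE 0.28, q = 0.47) there, and the smallest p was that of Spata1 (−0.35, SE 0.11, q = 0.18). Without HD replicate 5 the 15 became 6 (Spata1, Spata18, Spata31f3, Spata32, Tex2 and Tex36), where 6.49% of all probe sets were lower. In that fit 2 others (Tex26 and Tex101) were higher, and the share of all probe sets that were higher was not counted. This last comparison shares the HD arrays with the first, and the age of the rats cannot be told apart from the recovery itself.

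How the genes varied together was examined on the deviations of each array from its group mean, with Spata19 as the point of reference since it varied most. Over the 77 arrays, Spata31f3 followed Spata19 most closely (Pearson r = 0.92, Spearman rho = 0.93), then Spata6 (r = 0.92, rho = 0.90), Spata24 (0.87 and 0.86), Spata32 (0.86 and 0.90), Spata3 (0.84 and 0.85) and Spata20 (0.84 and 0.81). In all, 9 of the 34 other genes had an r of at least 0.8, where 0.709% of all other probe sets did, and 13 had an r of at least 0.7, where 1.53% did. The median r was 0.47 over the 34 genes and −0.16 over all other probe sets. The p-value was 1e-05 for each of the 6 genes just named, for both measures, which is the smallest that 100000 permutations within groups can give (2.33e-05 and 2.63e-05 after Benjamini-Hochberg adjustment over 42 relations).

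These correlations did not rest on single arrays. The arrays farthest from the median of the Spata19 deviations from the group means were HD replicate 5 and HD replicate 18, with levels of 12.33 and 7.49. Without both the r was 0.91 for Spata31f3, 0.90 for Spata6, 0.84 for Spata24, 0.91 for Spata32, 0.85 for Spata3 and 0.80 for Spata20. Without the 10 arrays that stood apart it was 0.92, 0.91, 0.85, 0.91, 0.87 and 0.81. Within the 4 groups taken singly, r ran from 0.89 to 0.95 for Spata31f3 and from 0.76 to 0.96 for Spata6, and from 0.60 to 0.95 for Spata24.

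For other genes the relation with Spata19 did rest on few arrays. Spata9 had an r of 0.34 (permutation p = 0.030, adjusted p = 0.049) but a rho of −0.02, and an r of −0.02 without both farthest arrays. Tex30 had 0.32 (permutation p = 0.025, adjusted p = 0.042), and 0.00 without them. Spata31 had 0.48 with both arrays and 0.34 without, with a rho of 0.35 (permutation p = 0.00053, adjusted p = 0.0012), so that its relation was smaller without them but of the same sign. Genes with functions in many cell types were spread from 0.79 (Spata7, a protein of the photoreceptor connecting cilium) through 0.56 (Tex2) to −0.16 (Spata13, an exchange factor of Rac and Cdc42, permutation p = 0.17). Of the 34 relations, 23 were positive and 0 negative at an adjusted p under 0.05, among them those of Spata9 and Tex30. Permutations were not run for the other probe sets, so no share over the whole array stands beside this count. An r of at least 0.5 was reached by 16 of the 34, where 4.26% of all other probe sets did.

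The mean of the 41 other sperm and spermatid genes had an r of 0.87 with Spata19 (rho 0.85, permutation p = 1e-05 for both), and that of 24 spermatocyte genes 0.58 (rho 0.60). The leukocyte mean had 0.04 (permutation p = 0.72), the epididymal mean 0.06 and the erythroid mean 0.02. The Sertoli cell mean had 0.17 and the Leydig cell mean −0.18, and none of these had an adjusted p under 0.05. Single groups differed in sign, with r from −0.185 to 0.333 for the leukocyte mean and −0.48 to 0.52 for the erythroid mean. The ranges were −0.04 to 0.10 for the epididymal, −0.54 to 0.59 for the Sertoli cell and −0.52 to 0.21 for the Leydig cell mean. The Sertoli cell mean had a rho of −0.18 and an r of −0.28 without both farthest arrays, so that its sign rested on them. The fibroblast mean had −0.34 (permutation p = 0.0024, adjusted p = 0.0046). Arrays rich in Spata19 were thus also rich in other sperm transcripts, within every group, where the r with the sperm and spermatid mean ran from 0.59 to 0.95.

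**Figure D3:**
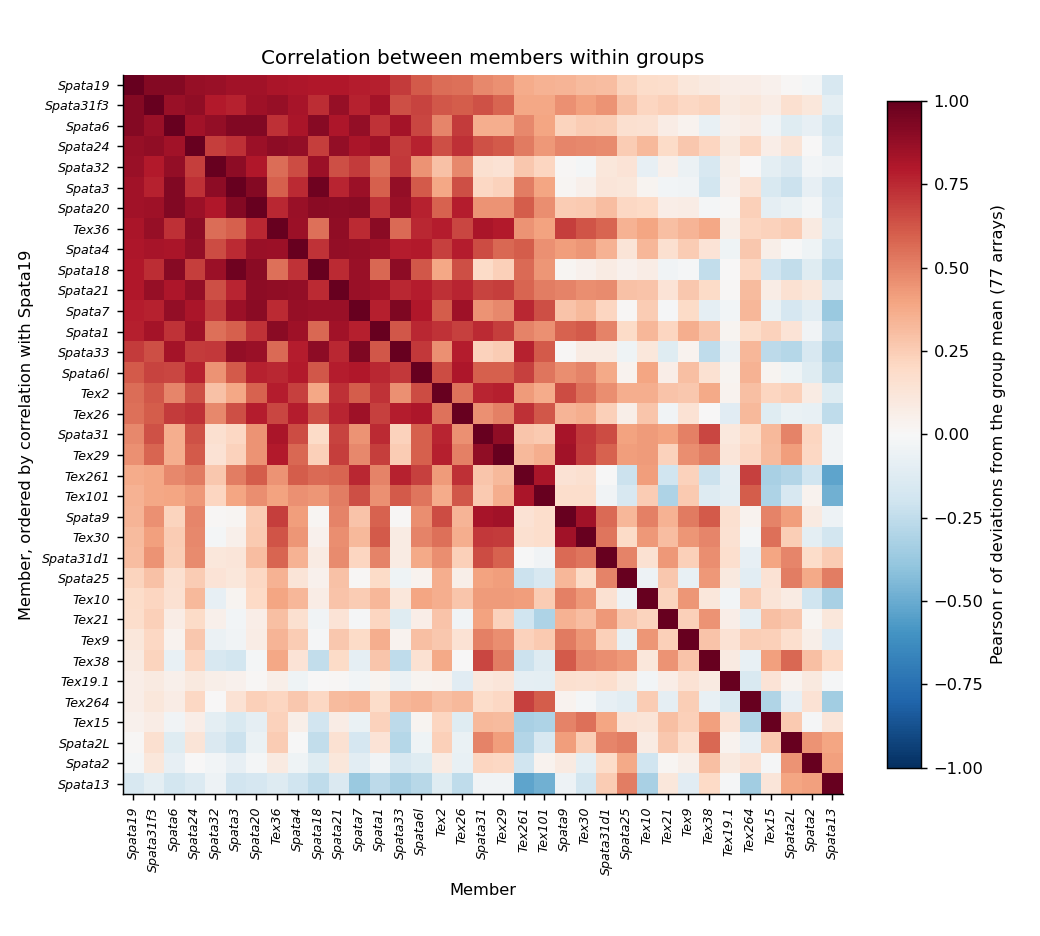
Pearson correlation (colour) between each pair of the 35 genes over the 77 arrays, from deviations of each array from its group mean, with genes on both axes ordered by their correlation with Spata19. The block of red at the upper left holds the genes with an r over 0.7 with Spata19, among them all 7 spermatid and sperm structure genes, and Spata13 in the last row is mostly blue.

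The 21 pairs among the 7 structure genes had correlations of 0.69 to 0.97 (median 0.85), and 0.73 to 0.97 (median 0.82) without the arrays that stood apart. Over all 595 pairs of the 35 genes the median was 0.31, and 0.12 without those arrays. The closest pair was Spata3 with Spata18 (r = 0.97), followed by Spata7 with Spata33 (0.93, or 0.95 with those arrays left out). The 3 meiosis and germ cell genes did not vary together, at −0.31 to 0.13. The lowest of all correlations were those of Spata13 with Tex261 (−0.53) and with Tex101 (−0.48). These values share the arrays, their normalization and the RNA yield of each sperm sample.

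Leaving out the 10 arrays that stood apart changed which genes passed. In HD against water (15 and 19 arrays) 13 of the 35 were then altered at q under 0.05. The 9 higher genes were Spata19, Spata24, Spata25, Spata31, Spata31f3, Spata32, Tex21, Tex36 and Tex38, where 17.4% of all probe sets were higher, and the 4 lower genes were Tex10, Tex26, Tex101 and Tex264, where 12.8% were lower. Spata19 had a log2 fold change of 0.73 (SE 0.28) and Tex26 of −0.40 (SE 0.10). So many probe sets passed that Storey's method put the unaltered share at 0.38, which relaxes q, and by Benjamini-Hochberg adjustment 3 of the 35 passed (Spata31 higher, Tex26 and Tex264 lower), where 13.5% of all probe sets did, a larger share than the 8.57% of the 35.

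In HD-recovery against water-recovery (17 and 16 arrays) 15 of the 35 were altered without the arrays that stood apart, and every one of these 15 was higher, where 6.54% of all probe sets were higher and 6.58% lower. All 7 structure genes were among them, with a median log2 fold change of 0.57. Spata19 had 1.06 (SE 0.23, p = 6.03e-05), Spata20 0.61 (SE 0.12), Spata6 0.59 (SE 0.14), Spata3 0.57 (SE 0.10, p = 3.57e-06) and Spata18 0.50 (SE 0.10). Spata33 had 0.51 (SE 0.10, p = 7.56e-06), Spata7 0.36 (SE 0.09), Tex261 0.37 (SE 0.11), and Spata21, Spata31f3, Spata32, Spata6l and Tex36 passed as well. By Benjamini-Hochberg adjustment 14 of the 15 passed, without Tex261, where 4.8% of all probe sets did. HD-recovery replicates 2, 9 and 16, which were left out, had low values of Spata3 and Spata18, while water-recovery replicate 12, also left out, had the highest of its group, at 11.13 and 11.53.

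Array weights, which keep every array but count discordant ones less, gave 14 of 35 in HD against water (11 higher and 3 lower, where 9.05% and 8.67% of all probe sets were) and 10 higher and 0 lower in recovery (where 1.45% and 0.349% were). For the difference of both effects, 10 of 35 passed without the arrays that stood apart, where 56.8% of all probe sets did, and 6 with array weights, where 33.7% did. These shares lie below those of the whole array. Among the larger differences between exposure and recovery without those arrays were Spata33 at −0.76 (SE 0.21), Tex101 at −0.63 (SE 0.22) and Tex26 at −0.60 (SE 0.14, the smallest p of the 35), each being lower in HD relative to its control than in HD-recovery relative to its own.

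**Figure D4:**
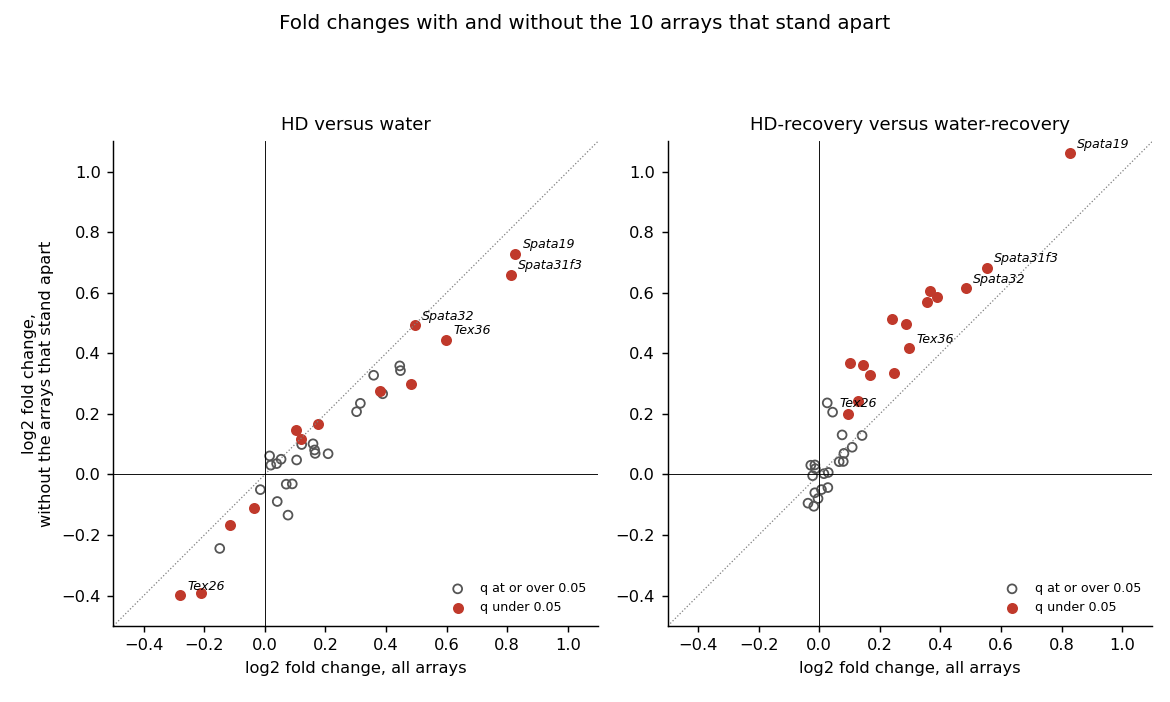
Log2 fold change of each of the 35 genes with all 77 arrays (horizontal axes) and without the 10 arrays that stood apart (vertical axes), for HD against water on the left and HD-recovery against water-recovery on the right, with filled points for q under 0.05 without those arrays and a dotted line of equality. On the left Spata19 moves from 0.83 to 0.73 and Tex26 from −0.28 to −0.40, and on the right all 15 filled points lie above the line, with Spata19 moving from 0.83 to 1.06.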

How the data were processed

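Sperm RNA of 77 rats was hybridised to whole-transcript rat gene arrays of Affymetrix, 1 rat per array. The authors deposited 1 table of normalized values, taken as log2 intensities from their range (2.515 to 14.63), with normalization steps that the sources used here do not give. No detection calls came with them, and array number limits the precision. Groups followed the sample labels. Each HD group was set against its control with limma 3.58.1 in R 4.3.3 on all 29214 probe sets, following the study's methods, with Storey's q-values computed from their published definition and called under 0.05. The difference of effects and the changes over recovery used 1 fit of all 4 groups. Permutations used Python 3.11.15 and scipy 1.17.1. The fits were tested on simulated data with independent normal values for each probe set. Those data held no arrays that stood apart, so the check does not cover the effect of such arrays. Gene symbols came from the platform annotation, and all 35 genes matched RefSeq by gene ID. The genes described singly were the 4 markers of the families (Spata3, Spata6, Spata18 and Spata19), the 6 of smallest p in each of the first 3 comparisons, the 5 of highest and 3 of lowest mean and the 5 of largest spread, 19 in all, and other genes are named for their counts or values after these were seen. Members, marker lists and roles were chosen with earlier results of these data known. Whether dim probe sets resemble olfactory receptor probe sets was not used, since signals of different probe sets are not comparable as levels. Alternatives were 2 scalings, a filter on dim probe sets, other fits and adjustments, array weights, a principal component, a replicate block and leaving out arrays.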

Additional observations from a re-analysis of the deposited data

How the results depend on the processing

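The number of the 35 genes altered in HD against water was 0 with all arrays and 14 with array weights, 13 without the arrays that stood apart and 5 with the first principal component (41.9% of the variance within groups) as a covariate (4.91% of all probe sets). In recovery it was 0, 10 with array weights and 15 without the arrays that stood apart. For the difference of effects it was 0, 6 and 10, and for HD-recovery against HD 0, 11 and 16, where 45.2% and 57.4% of all probe sets were, larger shares than those of the 35, and 2 with the principal component (4.73% of all probe sets). With Benjamini-Hochberg in place of q, added after these counts were seen, array weights gave 7, 2, 2 and 4 in these 4 comparisons, where 9.02%, 0.363%, 12.7% and 23.2% of all probe sets passed. Leaving out the arrays that stood apart gave 3, 14, 8 and 6, where 13.5%, 4.8%, 33.4% and 35.6% did, and the share of the 35 was above that of the whole array for the 7, the 2 in recovery and the 14 and below it for the other counts. The cause was not tested. Tex2 in recovery turned from −0.01 to 0.023 with array weights and, whichever adjustment was used, to 0.031 when the arrays that stood apart were left out. Centred medians, quantile normalization, a filter on dim probe sets, other groups in the fit, Benjamini-Hochberg alone and leaving out each array in turn (0 to 0) left every count at 0, as did every setting for water-recovery against water. Of 799 single-gene values in HD against water 0 changed sign and 32 passed the threshold, and of 783 in recovery 4 changed sign (those of Tex2) and 32 passed. With the replicate number as a replicate block 0 genes were altered in each comparison. Same-numbered arrays correlated at −0.58 to 0.65 (median 0.03) over 19 pairs and at −0.41 to 0.64 (median 0.04) over 18, and 2 and 4 correlated best with their own number. The medians over other pairs were 0.00 and −0.01. Whether the numbers paired the samples was not tested. Averaging probe sets of a gene did not apply, as each gene had 1.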
